A study of Mus musculus with 12 samples.

Results

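The parts of the genome that touch the nuclear lamina were compared between 8-cell mouse embryos that had received an siRNA against Rif1 and 8-cell embryos that had received a control siRNA. The comparison holds the samples of the groups siRif1_8C and siControl_8C, 6 of the 12 samples of the series, and it rests on the list of lamina-associated domains (LADs) deposited for each group, 2 of the 4 lists. A stretch is called gained where only the siRif1_8C list has a LAD and lost where only the siControl_8C list has one.

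The embryos were (C57BL/6J xCBA) x DBA/2J in every group. Zygotes were injected with 20 µM siRNA, siControl or siRif1, at 17 to 18 h after hCG. Both cells of the late 2-cell embryo then received Tir1 (250 ng/µL), membrane-eGFP (100 ng/µL) and AID-Dam-LaminB1 (20 ng/µL) at 46 to 48 h, and culture went on in 500 µM auxin. Auxin, which directs AID-tagged protein to degradation through Tir1, was withdrawn at 66 h, and 8-cell embryos were collected at 72 to 74 h. Each group had 3 replicates of 16 to 24 blastomeres from 2 to 3 embryos, with polar bodies removed, and the labels do not say whether replicates came from separate collections. All groups carry the Dam fusion, Tir1 and the auxin treatment. The siRNA is the only difference that the labels give between siRif1_8C and siControl_8C. The 4-cell groups, used here only to show where the 8-cell embryos differ, had auxin withdrawn at 54 h and were collected at 60 to 62 h, with 4 to 6 embryos per replicate.

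LADs are long, mostly gene-poor stretches of the genome that lie against the protein meshwork lining the inner nuclear membrane, and many of their genes are silent. In DamID, Dam, a bacterial methyltransferase of adenine, is fused to lamin B1, so that GATC sites near the lamina become methylated and can be amplified. Rif1 binds late-replicating chromatin, brings protein phosphatase PP1 to it and holds back origin firing there, and late replication and lamina contact often coincide. The 8-cell stage is when the blastomeres of the mouse embryo compact and polarise, before inner cell mass and trophectoderm separate.

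Each group is represented by 1 list made from its 3 replicates, on a grid of 100 kb. The lists give no value per replicate and no read depth, so no difference between groups has a replicate error, an interval or a p-value. The lists hold no RNA level and no check of the knockdown or of the cell stage by marker genes. The Rif1 gene (chromosome 2, 52072815 to 52126769) was in no LAD of either 8-cell list. Over the 2384.9 Mb between the first and the last LAD of any list on each autosome, 750.5 Mb were LAD in both 8-cell lists, 273 Mb were gained, 316.2 Mb were lost and 1045.2 Mb were outside LADs in both. Of 20144 protein-coding genes placed by their midpoints, 3407 were LAD in both lists, 1476 (7.33%) were gained and 1888 (9.37%) were lost, and these 2 percentages are the background for every gene list below. Among the 14849 genes outside siControl_8C LADs the gained share was 9.94%, and among the 5295 genes inside them the lost share was 35.7%.

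Among regulators of the early lineages, the state of Sox2, Nanog, Cdx2, Gata3, Ascl2 and Zscan4c differed between the lists. Their RefSeq promoters (GRCm38.p6, 250 bases before to 50 bases after a transcription start) are shown because these loci carry the comparison closest to the biology of the stage. They are written 5′ to 3′ on the gene's strand, and capitals mark GATC, the palindrome that Dam methylates.
Sox2 promoter, chr3:34649745-34650044, plus strand: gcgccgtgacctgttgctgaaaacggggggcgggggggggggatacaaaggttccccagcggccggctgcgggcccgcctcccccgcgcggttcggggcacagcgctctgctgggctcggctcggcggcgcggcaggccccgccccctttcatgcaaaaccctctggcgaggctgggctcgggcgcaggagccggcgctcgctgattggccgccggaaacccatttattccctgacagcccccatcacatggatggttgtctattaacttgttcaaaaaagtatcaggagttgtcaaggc
Nanog promoter, chr6:122707239-122707538, plus strand: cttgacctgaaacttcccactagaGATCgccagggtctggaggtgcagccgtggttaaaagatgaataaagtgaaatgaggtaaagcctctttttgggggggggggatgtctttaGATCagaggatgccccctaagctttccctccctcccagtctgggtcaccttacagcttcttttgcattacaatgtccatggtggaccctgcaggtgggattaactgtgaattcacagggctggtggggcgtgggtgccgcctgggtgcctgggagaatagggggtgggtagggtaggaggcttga
Cdx2 promoter, chr5:147307200-147307499, minus strand: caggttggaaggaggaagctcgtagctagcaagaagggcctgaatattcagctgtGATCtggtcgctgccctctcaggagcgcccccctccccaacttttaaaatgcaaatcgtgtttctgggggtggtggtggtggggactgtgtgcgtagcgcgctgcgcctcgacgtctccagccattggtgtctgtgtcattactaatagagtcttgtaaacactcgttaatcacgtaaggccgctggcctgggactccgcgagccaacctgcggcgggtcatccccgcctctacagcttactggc
Gata3 promoter, chr2:9878551-9878850, minus strand: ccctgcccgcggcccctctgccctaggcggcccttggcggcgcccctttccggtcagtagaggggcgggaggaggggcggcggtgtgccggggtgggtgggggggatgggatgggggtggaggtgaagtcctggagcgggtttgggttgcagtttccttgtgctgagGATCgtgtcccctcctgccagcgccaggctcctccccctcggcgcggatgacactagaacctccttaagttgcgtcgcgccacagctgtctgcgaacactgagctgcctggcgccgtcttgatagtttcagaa
Ascl2 promoter, chr7:142969215-142969514, minus strand: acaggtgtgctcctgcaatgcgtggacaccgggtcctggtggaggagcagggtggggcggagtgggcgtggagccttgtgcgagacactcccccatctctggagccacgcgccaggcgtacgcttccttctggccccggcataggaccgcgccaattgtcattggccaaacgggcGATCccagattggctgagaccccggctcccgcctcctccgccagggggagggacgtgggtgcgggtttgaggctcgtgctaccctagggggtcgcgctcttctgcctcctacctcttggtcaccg
Zscan4c promoter, chr7:11005495-11005794, plus strand: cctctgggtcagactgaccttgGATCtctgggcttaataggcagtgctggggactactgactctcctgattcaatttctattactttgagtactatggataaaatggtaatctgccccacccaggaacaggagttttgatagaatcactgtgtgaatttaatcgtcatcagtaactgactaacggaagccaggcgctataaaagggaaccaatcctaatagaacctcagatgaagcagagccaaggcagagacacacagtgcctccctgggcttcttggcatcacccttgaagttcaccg

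The Sox2 window held no GATC, the Nanog window held 2, and the windows of Cdx2, Gata3, Ascl2 and Zscan4c held 1 each. The Gata3 window belongs to a start inside the annotated gene. GATC reads the same on both strands, and 48.0% of all 32851 promoter windows of 300 bases held at least 1. The LAD state is known only per 100 kb, so a window of this size takes the state of its bin and shows no contact of its own.

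Sox2, which encodes a core pluripotency factor, lay in a gained stretch of 0.6 Mb on chromosome 3 (34600001 to 35200000) that held no other protein-coding gene. The stretch filled a gap between siControl_8C LADs, and Sox2 ended up in a siRif1_8C LAD of 2.1 Mb of which 38.1% was LAD in the control list. The nearest control LAD bin was the neighbouring one, 100 kb away. Sox2 had been LAD in both 4-cell lists. Nanog, the homeobox gene of naive pluripotency, lay at the edge of a siRif1_8C LAD whose border had moved outward by 200 kb on chromosome 6 (122700001 to 122900000). The gene's midpoint was 11.1 kb from the new edge, and 88.2% of this LAD of 1.7 Mb, which holds Clec4 and Vmn2r genes beyond Nanog, was LAD in the control list too. Nanog was outside LADs in both 4-cell lists. Pou5f1, added here for comparison after its state was seen, was outside LADs in all 4 lists. In the same list of 22 pluripotency genes, 2 genes were LAD in both 8-cell lists. Lin28b, an RNA-binding regulator of let-7 maturation, was lost through a border shift of 100 kb that covered 50% of the bins it spans. The list thus had 2 gained genes (9.09%) and 1 lost gene (4.55%), beside 7.33% and 9.37% of all protein-coding genes.

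Cdx2, the homeobox regulator of the trophectoderm, was gained deep inside a closed gap. The stretch ran over 1.5 Mb of chromosome 5 (146500001 to 148000000) and held 22 protein-coding genes, among them the homeobox neighbours Gsx1 and Pdx1 and the receptor genes Flt1 and Flt3. Its midpoint lay 696 kb from the nearest end of the stretch, and the whole stretch was outside LADs in both 4-cell lists. The siRif1_8C LAD that formed there measured 3.3 Mb, with 51.5% of it LAD in the control list.

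Other trophectoderm genes went the opposite way. Gata3, which acts beside Cdx2 in the trophectoderm, was lost from a LAD of 1.3 Mb on chromosome 2 whose border had moved inward by 0.6 Mb (9800001 to 10400000). Gata3 was LAD in both 4-cell lists, and 53.8% of its control LAD persisted in siRif1_8C. Ascl2, an imprinted regulator of trophoblast, was in a control LAD of 0.4 Mb on chromosome 7 (142800001 to 143200000), shared with Th, Tspan32, Cd81, Tssc4 and Trpm5, that had no counterpart in siRif1_8C. The nearest siRif1_8C LAD bin lay 900 kb from the bin of Ascl2, which was outside LADs at the 4-cell stage. Klf6, a zinc finger factor, was lost through an inward shift of 0.5 Mb on chromosome 13 (5800001 to 6300000). The trophectoderm list thus had 1 gained gene (5.88%) and 3 lost genes (17.6%) of 17. The number of its genes in LADs went from 4 in the control to 2 in siRif1_8C, and Eomes was LAD in both lists. None of the 13 primitive endoderm genes differed, with 3 of them LAD in both 8-cell lists.

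**Figure D1:**
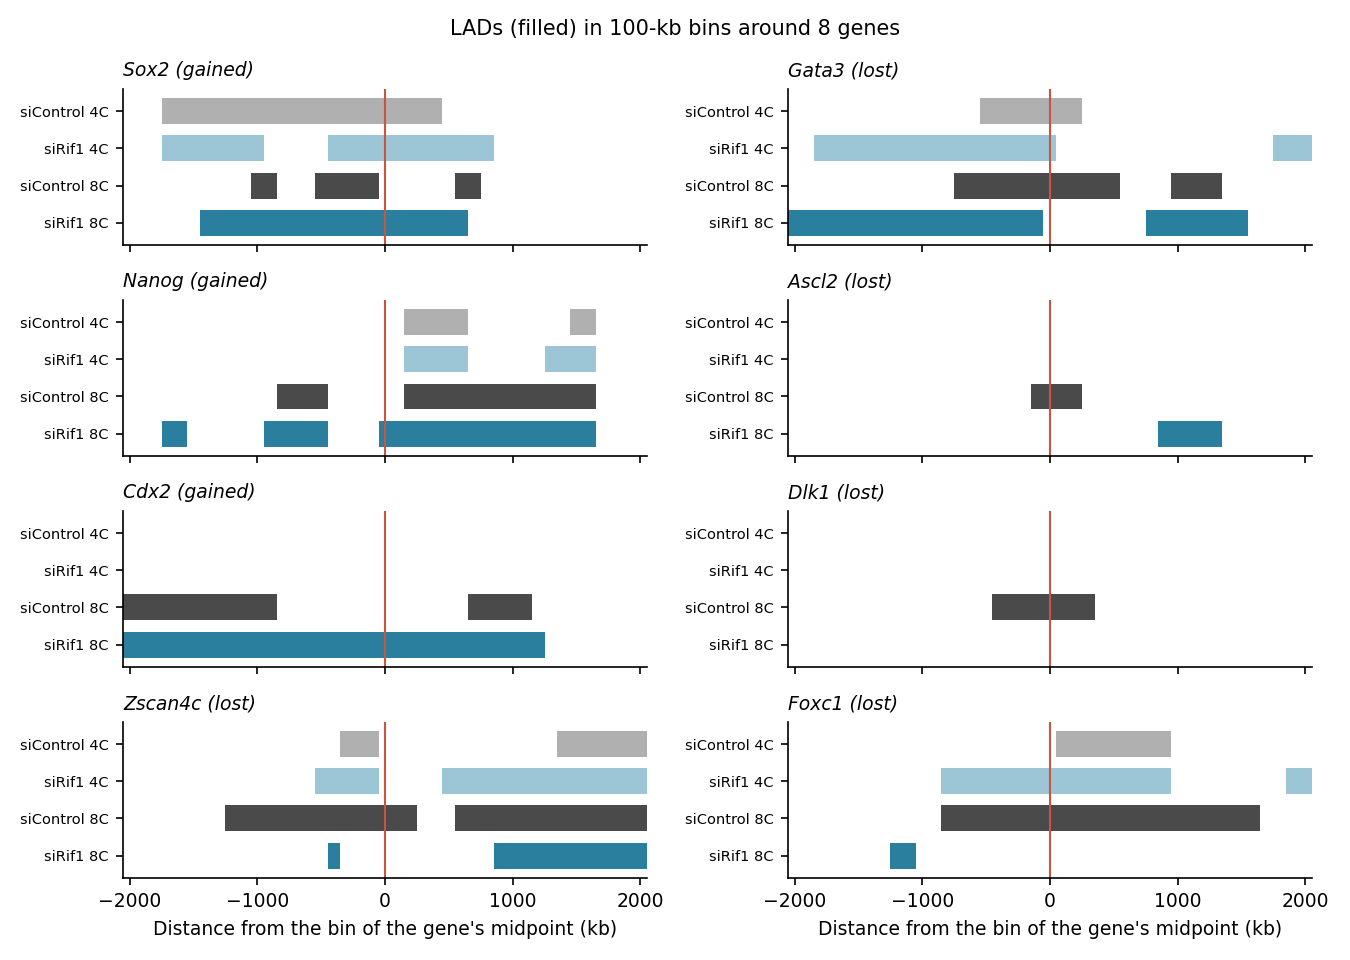
LADs of each list (filled 100-kb bins) within 2000 kb on either side of 8 genes, with the red line at the bin that holds the gene's midpoint. In the siRif1_8C row the line crosses a LAD at Sox2, Nanog and Cdx2, and in the siControl_8C row it does so at Zscan4c, Gata3, Ascl2, Dlk1 and Foxc1.

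Of 28 genes active around the 2-cell stage and genome activation, 4 were gained (14.3%) and 6 lost (21.4%). Zscan4b, Zscan4c and Zscan4d, which encode zinc finger proteins of the 2-cell transcript burst, were lost together from chromosome 7 (10700001 to 11300000). Of their control LAD of 1.5 Mb, 6.67% remained LAD in siRif1_8C, and its other genes are mostly vomeronasal receptors. At the 4-cell stage Zscan4b was LAD in both lists and Zscan4c and Zscan4d in neither. Usp17lc and Usp17ld, deubiquitinase genes set among olfactory receptor genes, were lost from another stretch of chromosome 7 (103200001 to 103500000). Tcstv1 and Tcstv3, similar genes on chromosome 13, took opposite states, gained in a closed gap (119600001 to 119900000) and lost in a stretch of 100 kb at a border (120300001 to 120400000). Tdpoz3 and Tdpoz4 were gained in a freestanding LAD of 200 kb on chromosome 3, and Spz1 at a border on chromosome 13. The Zscan4, Usp17l, Tdpoz and Tcstv genes have near-identical copies, and how reads that match several copies were placed is not given in the sources used here.

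Regulators used later in development differed at few loci. Brachyury (T), the mesoderm regulator, was gained by an outward shift of 0.6 Mb on chromosome 17 (8400001 to 9000000), so that it lay in a LAD of 0.7 Mb of which 14.3% was LAD in the control. Isl1, a LIM homeobox gene of motor neurons and heart, was lost at a border on chromosome 13 with its midpoint 3.98 kb from the edge of the stretch, so its state rests on a single bin. Both were outside LADs at the 4-cell stage, and the list counted 2 gained (7.69%) and 1 lost (3.85%) of 26 genes.

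Genes of the Rif1 pathway and of the replication machinery were mostly outside LADs in both lists, as were 13373 of all 20144 protein-coding genes. Of 20 genes for Rif1, PP1, the kinase DDK, the MCM helicase and their partners, 16 were outside LADs in both, 1 was gained (5%) and 2 were lost (10%). Ppp1cc, a catalytic subunit of PP1, was gained in a freestanding LAD of 100 kb on chromosome 5 (122100001 to 122200000). Mcm5, a subunit of the replicative helicase, and Shld3, a subunit of the shieldin complex that acts with Rif1 at DNA breaks, were each lost where a control LAD was split, on chromosome 8 (74900001 to 75500000) and chromosome 13 (103600001 to 104400000). Of 28 further replication genes, 22 were outside LADs in both lists, and 2 were gained and 2 lost (7.14% each). Cdc45, a helicase partner, was gained at a border on chromosome 16 and Chaf1b, of chromatin assembly factor CAF-1, in a freestanding LAD of 100 kb on the same chromosome. Gins1 (helicase) and Orc5 (origin recognition) were lost where LADs were split on chromosomes 2 and 5.

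Of the nuclear envelope genes, 5% were gained and 5% lost, and of the heterochromatin regulators 7.69% were gained and 7.69% lost. These shares stand beside 7.33% and 9.37% of all protein-coding genes. Lmnb1 (chromosome 18, 56707813 to 56753424), which encodes lamin B1, was LAD in siControl_4C alone and outside LADs in both 8-cell lists. Of 20 nuclear envelope genes, Tmpo, which encodes the LAP2 lamina proteins, was gained in a closed gap of 0.3 Mb on chromosome 10 (91000001 to 91300000). Sun1, of the complex that links the nucleus to the cytoskeleton, was lost with a LAD of 100 kb on chromosome 5. Of 26 heterochromatin regulators, the DNA methyltransferase gene Dnmt3b and Cbx5, which encodes heterochromatin protein HP1 alpha, were gained. Eed, a Polycomb subunit, and Hdac2, a histone deacetylase, were lost, both from LADs present in both 4-cell lists. Hdac2 lay 712 kb inside the border that moved inward the farthest of all, by 2200 kb on chromosome 10 (35500001 to 37700000). Among 25 genes of compaction, polarity and Hippo signalling, 1 was gained (4%) and 2 were lost (8%). The polarity gene Pard6b was gained in a freestanding LAD of 100 kb on chromosome 2. Mob1b and Stk3, both of the Hippo kinase cascade, were lost, and E-cadherin (Cdh1) was outside LADs in all 4 lists. With only LADs of at least 300 kb kept, 16 of the 147 genes that differed in the lists of up to 40 genes no longer did so: Ppp1cc, Chaf1b, Sun1, Pard6b, Tdpoz3 and Tdpoz4 above, and Csmd3, Cdh9, Cxcl9, Cxcl10 and 6 bitter taste receptor genes among those below.

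**Figure D2:**
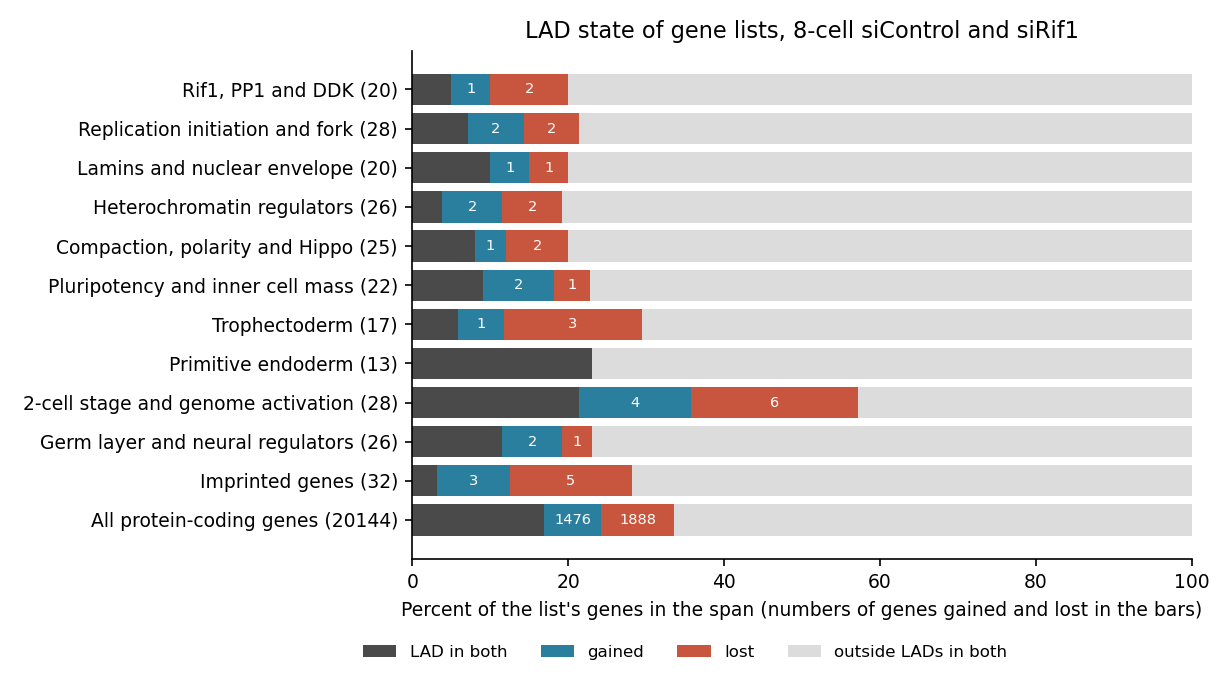
Share of each gene list by LAD state in the 8-cell lists, with the number of genes of the list in the span in brackets and the numbers gained and lost inside the bars. The bottom bar gives all 20144 protein-coding genes, of which 7.33% were gained and 9.37% lost.

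Imprinted genes differed at 6 stretches, with 3 gained (9.38%) and 5 lost (15.6%) of 32. Dlk1, a Notch-family ligand expressed from the paternal copy, and Rtl1, a retrotransposon-derived placental gene, were lost with their whole control LAD of 0.8 Mb on chromosome 12 (109000001 to 109800000), which also holds Begain. This LAD stood apart: the nearest siRif1_8C LAD bin was 3900 kb from the bin of Dlk1. The stretch was outside LADs in both 4-cell lists. Ube3a, a ubiquitin ligase gene of the Prader-Willi and Angelman region, was lost at the end of a LAD of 3.3 Mb on chromosome 7 whose border had moved inward by 1.6 Mb (57800001 to 59400000). Grb10, a growth-restricting adaptor gene, was lost where a LAD was split on chromosome 11 (11800001 to 12200000) and 100 kb before the longest gained stretch. Peg3 and Zim1 were gained in a freestanding LAD of 0.3 Mb on chromosome 7 (6500001 to 6800000), where both 4-cell lists had a LAD, and Zrsr1 was gained at a border on chromosome 11. The fifth lost member is Ascl2.

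The lost Dlk1 to Rtl1 stretch carries a large cluster of miRNA genes, singled out after its values were seen. Of 1103 annotated miRNA genes in the span, 115 (10.4%) were lost and 61 (5.53%) gained, and 60 of the 115 lie in this stretch (109544541 to 109747960), 52.2% of them. Outside it, 5.27% of miRNA genes were lost. RefSeq gives 112 mature sequences for the 60 genes, with 102 different seeds (bases 2 to 8), of which 9 are shared by a pair of different sequences. Mir3070a and Mir3070b also give an identical miR-3070-5p sequence, counted for each gene. The pairs below are shown because they share a seed, in capitals, within the stretch.
mmu-miR-379-5p: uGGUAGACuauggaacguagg
mmu-miR-1193-5p: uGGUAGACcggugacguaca
mmu-miR-379-3p: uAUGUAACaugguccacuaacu
mmu-miR-411-3p: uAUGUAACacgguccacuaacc
mmu-miR-376b-5p: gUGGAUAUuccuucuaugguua
mmu-miR-376c-5p: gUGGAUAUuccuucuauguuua

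The first pair shares GGUAGAC, the next AUGUAAC and the last UGGAUAU. The lists say only that the locus of these miRNAs was in a LAD in siControl_8C and in none in siRif1_8C, and give no miRNA level.

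Clusters of other noncoding genes changed state at a few loci, chosen here after their values were seen. Of 383 tRNA genes, 42 (11%) were lost and 4 (1.04%) gained, and 30 of the lost genes lie in a pair of stretches. The stretch of chromosome 11 at 69000001 to 69600000 held 18 tRNA genes of mixed specificity, and that of chromosome 6 at 47700001 to 48200000 held 12 cysteine tRNA genes beside the Zfp786 group. Both were outside LADs in both 4-cell lists. The 5S rRNA cluster of chromosome 8 (123600001 to 123700000), whose product is part of the large ribosomal subunit, held 12 of the 15 gained rRNA genes (25%) of 60 in a freestanding LAD of 100 kb, and 0 rRNA genes were lost. Tandem copies of this kind are near-identical, and how reads matching several copies were placed is not given in the sources used here.

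Of 1268 snoRNA genes, 159 (12.5%) were lost and 130 (10.3%) gained. The lost stretch at Ube3a held 26 of them and the lost stretch at Dlk1 and Rtl1 held 19, both imprinted regions with arrays of C/D-type snoRNA genes. Among antigen receptor V segments, 35 of 374 (9.36%) were gained and 25 (6.68%) lost. The gained ones include 12 and 11 kappa light chain segments at borders on chromosome 6 (68800001 to 69200000 and 69800001 to 70100000) and 7 T cell receptor gamma segments on chromosome 13. The lost ones include 14 heavy chain segments on chromosome 12 (114100001 to 114400000) and 8 alpha and delta segments on chromosome 14 (53800001 to 54100000). The miRNA genes Mir429, Mir200a and Mir200b, of a family of epithelial miRNAs, were gained together on chromosome 4 (155900001 to 156200000), and Mir100, Mirlet7a-2 and Mir125b-1 were lost together on chromosome 9 (41400001 to 41600000). Of 12200 long noncoding RNA genes, 8.22% were gained and 11.3% lost, beside 7.33% and 9.37% of protein-coding genes.

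Long neuronal and adhesion genes were mostly LAD in both lists (21 of 38), and 7 were gained (18.4%) and 4 lost (10.5%). They exceed the grid, and in the genes described next the change covered part of the gene, while Cntnap5b, a neurexin-family gene of 718 kb, went from 0% to 100% of its bins. Lrp1b, a lipoprotein receptor gene of 2058 kb, had 4.55% of its bins in LADs in siControl_8C and 68.2% in siRif1_8C. Cntnap2, a neurexin-family gene of 2241 kb, went from 33.3% to 83.3%. The receptor phosphatase gene Ptprd (2271 kb) went from 79.2% to 8.33%, where a control LAD of chromosome 4 was split over 2 Mb (75500001 to 77500000). Cntn4, a contactin gene, went from 100% to 25%, and Pcdh15, a cadherin of the inner ear, from 100% to 52.9%. Csmd1 (33.3% to 44.4%) and Erbb4 (33.3% to 58.3%) changed over few bins. In each of the 11 genes that differed, the state of the midpoint and the covered share moved the same way. The genes were picked by their midpoint, whose bin counts in the covered share, so these measures are not independent. Placed by any overlap, all of the 11 except Cntnap5b no longer differed.

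Cadherin genes outside the clusters were gained in 5 of 22 cases (22.7%) and lost in 3 (13.6%). Cdh8, a synaptic cadherin, was the lone protein-coding gene of the longest freestanding gain, 3.1 Mb on chromosome 8 (98300001 to 101400000), and lay 921 kb inside it. Cdh11 and Cdh16 were gained farther along the same chromosome, and Cdh5, the endothelial cadherin between them, was lost (104000001 to 104500000). Cdh7 and Cdh19 were gained on chromosome 1, and Cdh9 and Cdh17 were lost.

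Among neurotransmitter receptor genes, Gabra6 and Gabrb2, which encode GABA receptor subunits, were lost in a stretch of 1.9 Mb on chromosome 11 (42300001 to 44200000). The stretch is the third largest inward border shift and also holds Atp10b and Pttg1. Both receptor genes were outside LADs in both 4-cell lists. The list of 39 glutamate and GABA receptor genes had 4 gained and 4 lost (10.3% each), among them Grik2, gained (25% to 100% of its bins), and Gabrb1, lost (83.3% to 0%).

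HoxD and HoxC, both clusters of body-axis regulators, took opposite states. HoxD lay in a control LAD of 1.4 Mb (chromosome 2, 74100001 to 75500000) that disappeared whole, and all 9 HoxD genes had been LAD in siControl_4C and in none in siRif1_4C. HoxC lay in a gained stretch of 0.9 Mb at a border (chromosome 15, 102500001 to 103400000) with 23 protein-coding genes, Cbx5 included, and its genes were outside LADs in both 4-cell lists. HoxA and HoxB made up the 21 Hox genes outside LADs in both. The longest LAD lost whole, 2.5 Mb on chromosome 13 (31000001 to 33500000), held 3 neighbouring forkhead genes (Foxq1, Foxf2, Foxc1) and 12 serpin genes of the Serpinb1 to Serpinb9 group, protease inhibitors of leukocytes. Counted from the bin of Foxc1, the nearest siRif1_8C LAD bin lay at -1100 kb and the lost LAD began at -800 kb.

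Gene families in tandem clusters changed locus by locus, so their counts follow a few stretches and their genes are not separate observations. All 15 trace amine receptor genes were lost in a single stretch at a border of chromosome 10 (23100001 to 24500000), where both 4-cell lists had LADs over the genes. Bitter taste receptors had 7 gained (20%) and 13 lost (37.1%) of 35. Those that differed lie on chromosome 6, except Tas2r134, which was lost on chromosome 2. On chromosome 6, 6 genes including Tas2r125 and Tas2r140 were gained in a freestanding LAD of 0.2 Mb (132900001 to 133100000), and 6 including Tas2r105 and Tas2r114 were lost at a border that comes before it (131400001 to 131700000). Chemokine genes had 4 gained (11.1%) and 12 lost (33.3%) of 36. The Ccl2, Ccl7, Ccl11, Ccl12, Ccl8 and Ccl1 group and the Ccl5, Ccl9, Ccl6, Ccl3 and Ccl4 group, attractants of monocytes and other leukocytes, were lost from 2 stretches of chromosome 11 (81900001 to 82400000 and 83500001 to 84000000). Cxcl9 and Cxcl10, attractants induced by interferon, were gained in a LAD of 100 kb on chromosome 5. With LADs of at least 300 kb, these 2 genes and the 6 bitter taste genes of the gained LAD no longer differed.

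In the larger families the largest blocks were as follows. Of 57 clustered protocadherins, 36 of the alpha and beta groups were gained in a freestanding LAD of chromosome 18 (36600001 to 37700000) that held 56 protein-coding genes, the most of any gained stretch. The keratin-associated cluster of chromosome 11 (99400001 to 100300000) was the lost stretch with the most protein-coding genes, 58, of which 41 belong to the keratin list, and Krt8 of the trophectoderm lay outside LADs in all 4 lists. The late cornified envelope cluster with filaggrin (Flg) was lost on chromosome 3 (92600001 to 93500000, 32 genes), 200 kb before the gained Tdpoz genes. Olfactory receptors changed in 14 gained and 19 lost stretches, with the largest blocks on chromosome 2 (85800001 to 86300000, 29 genes gained) and chromosome 16 (58500001 to 59800000, 25 genes lost). The largest vomeronasal block, 16 Vmn1r genes, was lost on chromosome 7 (23300001 to 24200000). Ugt2 and Sult1 genes of conjugation were gained as a block of 9 on chromosome 5 (87100001 to 88100000), and 10 pregnancy-specific glycoprotein genes (Psg) were lost on chromosome 7 (18100001 to 18800000). The major urinary protein genes Mup20, Mup3 and Mup21 were lost at a border, and the other 19 of 22 stayed LAD in both.

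In housekeeping families few genes differed, mostly 1 per stretch. Of 33 genes for subunits of respiratory complex I, 5 were gained (15.2%) in 5 different stretches, Ndufs1, Ndufa8, Ndufa4, Ndufab1 and Ndufa2, and 0 were lost. These counts stand beside 7.33% and 9.37% of all protein-coding genes. Proteasome genes had 3 gained and 1 lost of 46, cytosolic ribosomal protein genes 1 and 4 of 73, mitochondrial ribosomal protein genes 1 and 4 of 75 (Mrpl46 and Mrps11 together in a stretch of chromosome 7), and none of the 69 clustered histone genes differed. Of 375 Zfp zinc finger genes, 18 were gained (4.80%) and 42 lost (11.2%), the largest block being 7 genes around Zfp786 and Zfp746 on chromosome 6 (47700001 to 48200000).

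Changes at LAD borders were the largest class of differing bases in both directions, below 50% of them in each. Of the 612 gained stretches, 332 extended a control LAD at a border (117.9 Mb, 43.2% of gained bases), 129 filled a gap between control LADs (89.9 Mb, 32.9%) and 151 stood free (65.2 Mb, 23.9%). Of the 672 lost stretches, 416 trimmed a control LAD (150.4 Mb, 47.6% of lost bases), 113 split one (92 Mb, 29.1%) and 143 removed one that had no siRif1_8C LAD beside it (73.8 Mb, 23.3%). Median lengths were 200 kb for changes at a border in either direction, 600 kb for filled gaps and 700 kb for splits. Many stretches hold no gene at all: 236 gained (38.6%) and 227 lost stretches (33.8%) had no protein-coding midpoint. Stretches of at least 1 Mb numbered 59 among the gains (83.7 Mb) and 83 among the losses (113.8 Mb).

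The longest of each class illustrate this range of gene content. After Cdh8, the longest freestanding gains were on chromosome 5 (61200001 to 64000000, with G6pd2, Arap2 and Dthd1) and chromosome 18 (25700001 to 27300000, with no protein-coding gene). The longest filled gaps were on chromosome 11 (12300001 to 15500000, with Cobl and Pom121l12), chromosome 17 (59400001 to 62300000) and chromosome 1 (47600001 to 49900000), the last 2 without a protein-coding gene. After the Foxc1 locus, the longest LADs lost whole held Lama2, a laminin gene, and Ptprk on chromosome 10 (26900001 to 28800000) and Clvs1, Asph and Gdf6 on chromosome 4 (9000001 to 10900000). The longest splits were on chromosome 19 (17100001 to 21000000, 13 genes including Gcnt1, Rfk and Pcsk5) and chromosome 10 (51000001 to 53600000, 15 genes including Lilr4b, Lilrb4a and Fam162b). Gains dense in genes included a gap of 0.5 Mb on chromosome 19 with 31 genes (8700001 to 9200000, including Slc3a2, Wdr74 and Stx5a).

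Control LAD borders moved inward more often than outward. Of 1492 borders, 414 (27.7%) moved inward, 328 (22.0%) outward and 200 (13.4%) stayed in the same bin, while 254 (17.0%) vanished into a filled gap and 296 (19.8%) went with a LAD that was lost whole. The median shift was 200 kb in both directions (quartiles 100 and 500 kb). Outward shifts of 1700 kb, the largest, included one over 23 genes from Ddx10 and Exph5 to Crabp1 on chromosome 9 (53100001 to 54800000) and one over a stretch of chromosome 18 without a protein-coding gene (17100001 to 18800000). The largest inward shifts were those at Hdac2 (2200 kb), at Inhba and Sugct on chromosome 13 (15600001 to 17600000, 2000 kb) and at Gabra6 (1900 kb). Of the 742 borders that moved, 44.2% went outward, against 63.8% of 635 at the 4-cell stage. Of the 942 borders with a shift or none, 452 (48.0%) stayed or moved within 100 kb, a single step of the grid.

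The share of bins that differed fell with distance from a control border. Inside control LADs, 47.2% of the bins in the first 100 kb were lost, 36.6% of the next, 25.1% of those 500 to 1000 kb in, and 21.1% of those deeper than 1000 kb. Outside, the gained share was 40.1% in the first 100 kb, 17.4% at 500 to 1000 kb and 9.59% farther out. The lost share of inside bins exceeded the gained share of outside bins at each distance at the 8-cell stage. At the 4-cell stage the gained share was the higher up to 1000 kb (51.8% against 32.8% in the first 100 kb), and the shares beyond were 14.7% gained and 15.2% lost. Over the whole span, 17.1% of bins were gained and 6.51% lost at that stage, and 11.4% and 13.3% at the 8-cell stage.

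**Figure D3:**
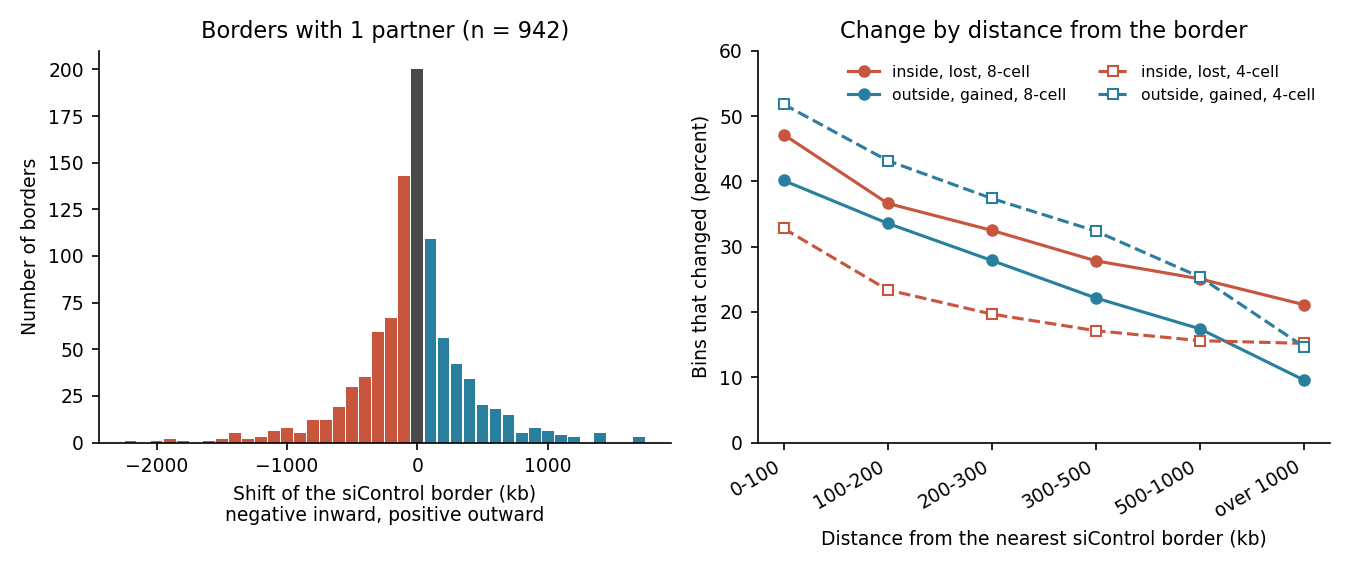
Left, number of siControl_8C borders by shift in siRif1_8C, in steps of 100 kb, for the 942 borders followed singly: 200 did not shift, 414 moved inward (negative) and 328 outward (positive). Right, percent of 100-kb bins lost inside and gained outside control LADs by distance from the nearest control border; solid lines are 8-cell and dashed lines 4-cell, and the 8-cell lines fall from 47.2% and 40.1% to 21.1% and 9.59%.

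The share of LADs that disappeared fell with their length. Of 746 control LADs, 148 (19.8%) had no base in siRif1_8C LADs, which was so for 51.0% of the 143 LADs of 100 to 300 kb, 22.7% of those of 400 kb to 1 Mb, 8.02% of those of 1.1 to 2 Mb and 1 of the 156 over 2 Mb. In the other direction, 155 of 738 siRif1_8C LADs had no base in the control list, with 53.5% of those of 100 to 300 kb. Whole control LADs were covered by the siRif1_8C list in 232 cases (31.1%), and 501 (67.2%) were covered over at least 50% of their length. Of the long LADs, 87 control LADs met 2 or more siRif1_8C LADs and 92 siRif1_8C LADs met 2 or more control LADs, with up to 5 in either case.

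Chromosomes differed in the balance of gain and loss. Chromosome 6, with Nanog and the Clec clusters, gained the most over loss, 25.4 Mb against 11.6 Mb. Its bitter taste genes went both ways, with more of them lost than gained. Chromosome 7, with Zscan4c, Ascl2, Ube3a and vomeronasal clusters, gained 7.5 Mb and lost 27.9 Mb. Chromosome 10, with Hdac2 and the Taar genes, gained 9.5 Mb and lost 26.1 Mb. Chromosome 19 lost 14.2 Mb, 48.1% of its control LADs, the highest share, and chromosome 1 lost 16.5% of them, the lowest. The net change was above 0 on 9 chromosomes and below 0 on 10, with a mean of -2.65 ± 7.40 percentage points of the span (SD over 19 chromosomes, which are not replicates). Without chromosome 7 the net change over the genome was -22.8 Mb and without chromosome 10 it was -26.6 Mb, in place of -43.2 Mb. At the 4-cell stage it was above 0 on 17 of 19. Along the chromosomes, divided into 5 equal parts from the first LAD, 13.9% of the first part was gained and 16.7% lost, against 8.60% and 9.27% of the fifth.

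**Figure D4:**
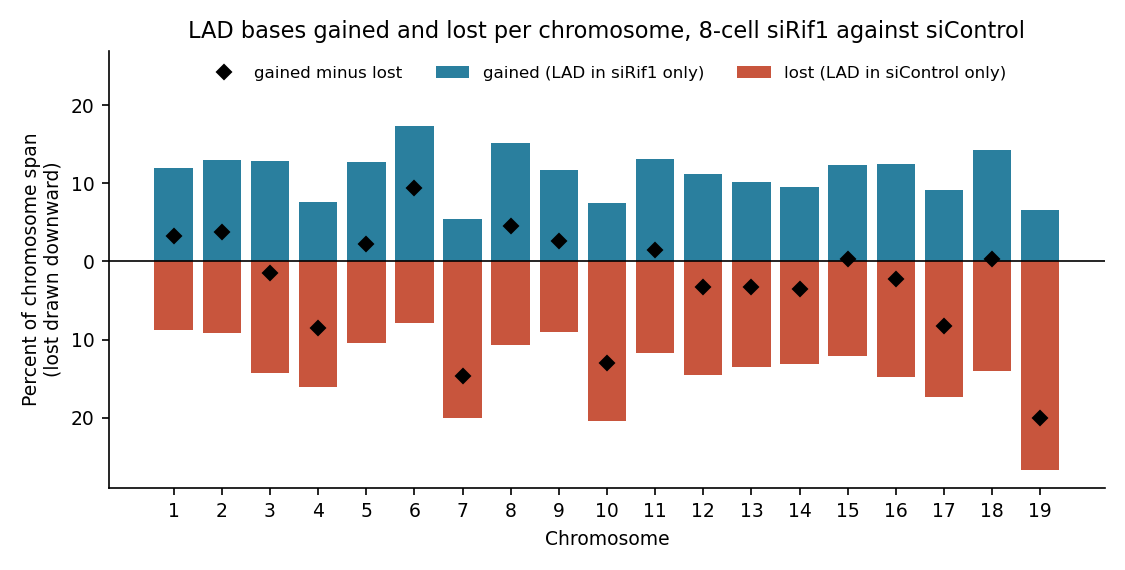
Percent of each chromosome's span gained (upward bars) and lost (downward bars) in siRif1_8C against siControl_8C, with diamonds for gained minus lost. Net values run from -20.1 points on chromosome 19 to 9.43 points on chromosome 6.

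Gained and lost bins resembled LADs more than the rest of the genome in gene content. Bins LAD in both lists held 4.54 protein-coding genes per Mb, gained bins 5.41, lost bins 5.97 and bins outside LADs in both 12.8. Bins without a gene midpoint made up 70.3%, 68.8%, 63.2% and 39.9% of these classes. By chromosome, the density was 4.53 ± 1.71 genes per Mb in shared LADs, 6.05 ± 4.13 in gained, 5.95 ± 2.20 in lost and 12.7 ± 3.46 in the rest (mean ± SD, 19 chromosomes). Lost bins were denser than shared LADs on 16 of 19 chromosomes, gained bins on 11, and the density of lost bins was above that of gained bins on 12. The spread over chromosomes is wider than the difference between gained and lost bins.

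**Figure D5:**
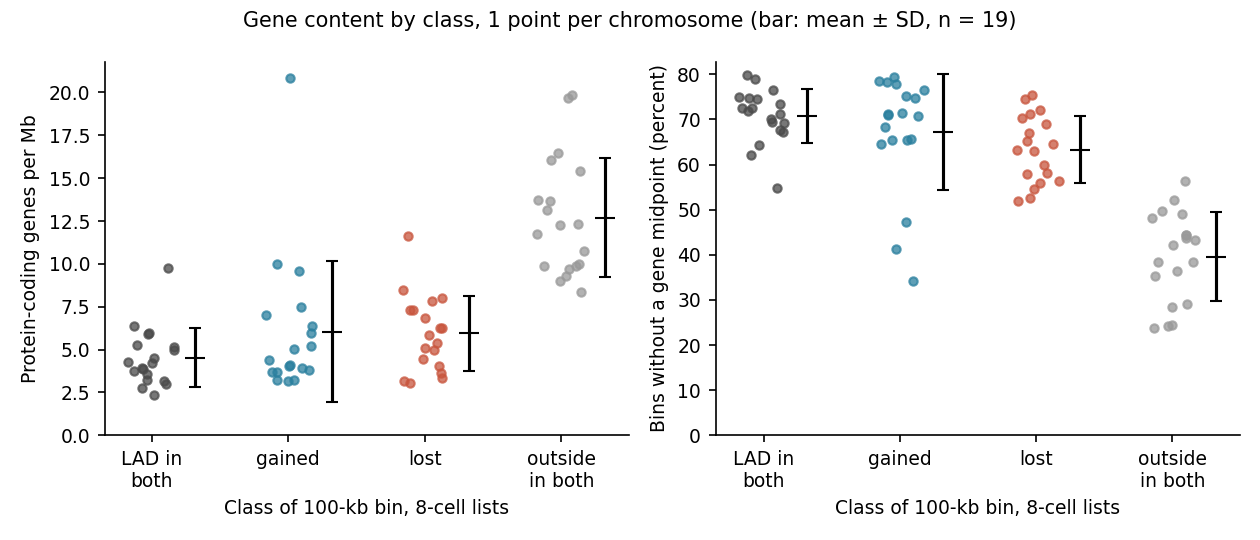
Protein-coding genes per Mb (left) and percent of 100-kb bins without a gene midpoint (right) for bins LAD in both 8-cell lists, gained, lost and outside LADs in both. Each point is a chromosome and the bar is the mean ± SD of 19 chromosomes; the gained and lost points overlap, around 6.05 and 5.95 genes per Mb.

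By their medians, gained genes had more CpG in their promoters than lost genes. RefSeq promoter windows, available for 82.1% of the 19635 genes outside chromosome 18, had a median of 12.5 CpG in gained genes (quartiles 3 and 24) and 6 in lost genes (2 and 21), against 5 in genes LAD in both lists and 17 in genes outside LADs in both. At least 10 CpG were found in 54.8% of gained and 43.6% of lost promoters. Gene length was also taken outside chromosome 18, over 1388 gained and 1849 lost genes, so the gained protocadherin stretch is in none of these values. Median gene length was 18.6 kb in gained and 18.8 kb in lost genes. Genes of at least 200 kb made up 6.34% and 7.19%, between the 9.96% of genes LAD in both and the 2.60% of genes outside. The share of promoters with a GATC lay between 45.0% and 49.1% in all 4 classes. Quartiles of gained and lost genes overlap widely, genes of a cluster share their stretch, and no test was made over genes.

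Gained and lost bins also differed in their state at the 4-cell stage. Of the gained bins, 53.3% were outside LADs in both 4-cell lists, as at Nanog, Cdx2, HoxC and the protocadherins, and 16.4% were LAD in both, as at Sox2. Of the lost bins, 32.6% were outside LADs in both, as at Ascl2 and Dlk1, and 36.7% were LAD in both, as at Gata3, Hdac2 and the Taar genes. Over the whole span these shares were 49.9% and 26.4%. They were 79.2% and 5.78% of the bins outside LADs in both 8-cell lists. Of the bins LAD in both 8-cell lists they were 15.3% and 54.5%. Gained and lost bins thus lay between these classes on both measures. Among the 147 genes that differed in the lists of up to 40 genes, 47 of 60 gained genes were outside LADs in both 4-cell lists. Of the 87 lost genes, 39 were LAD in both. These genes are not separate observations: the 9 HoxC genes lie in a single stretch, and so do the 15 Taar genes. No such share over all gained or lost protein-coding genes is given here. The 4-cell lists come from other embryos and share no sample with the 8-cell lists.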

How the data were processed

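DamID of lamin B1 was sequenced in pools of blastomeres, 3 replicates per group. The authors deposited 1 LAD list per group, made from all replicates, and linked it to replicate 1, per the labels. Of the deposited columns, start and end are other values (positions on a 100-kb grid, 0-based in the files and 1-based here), and the deposited score is 0 throughout and was not used. Trimmomatic, Bowtie2, SAMtools and Picard and the build mm10 (GRCm38) are named without versions, per the submitters' processing notes. Which program called LADs, with which settings, and whether Dam alone was used as a correction is not given in the sources used here. A threshold tied to depth would change how much is called. Read depth is unknown.

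Lists were compared in 100-kb bins with Python 3.11.15, numpy 2.4.6 and pandas 2.3.3, and the figures were drawn with matplotlib 3.10.9. The procedure was tested on simulated lists with known edits. Genes come from RefSeq GRCm38.p6 (47042 autosomal entries, of which 333 with scaffold coordinates were left out) and take the state of the bin of their midpoint. A border was followed outward while siRif1 was LAD, or inward while it was not. Named are the 3 longest stretches of each class and the 5 with the most protein-coding genes in each direction, the 3 largest shifts each way, every differing member of lists of up to 40 genes, Rif1 and Lmnb1, and the largest block of larger families. Genes named beside these as neighbours, and Pou5f1, Eomes, Krt8 and Cdh1, were chosen with their values known. Some items that these rules pick are not reported here. The members and the 39 gene lists were chosen with earlier results of these data known. With 1 list per group no p-value, SE or interval was computed. Alternatives were to drop LADs under 300 kb, to bridge gaps of up to 200 kb, to leave out each autosome, other placements of genes, and other rules for stretches, borders and kept LADs.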

Additional observations from a re-analysis of the deposited data

Results flagged for a closer look

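The direction of the net change differed between the stages. LAD bases gained minus lost came to -43.2 Mb at the 8-cell stage and 252.7 Mb at the 4-cell stage. Of the control borders that moved, 44.2% went outward at the 8-cell stage and 63.8% at the 4-cell stage. Each stage has 1 list per group, so this difference between the stages was not tested against the spread between replicates.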

How the results depend on the processing

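No paired analysis was possible because each group's 3 replicates were deposited as 1 pooled list, and for the same reason no replicate could be left out. Losses exceeded gains in bases, genes and borders under every alternative run, and no named gene reversed. Of 295 values recomputed, 287 stayed within 1.5 times the value reported. Most of the 295 come from leaving out 1 autosome, a step that can move a genome total only a little. The count therefore says little about the other settings. With stretches under 300 kb left out, 375 gained and 408 lost stretches remained. The excess of inward over outward borders moved from -86 to -47 with the nearest border of the same side within 1 Mb, and to -52 with shifts of at least 200 kb, when 271 borders moved inward. Without chromosome 7 the net change was -22.8 Mb and -260 genes (in place of -412), and without chromosome 10 it was -26.6 Mb. The cause was not tested. Of 147 named genes, 131 kept their state with LADs of at least 300 kb, 147 with gaps bridged, 136 by any overlap, 133 by whole length, and 103 of the 109 with a known start by that start. Placed by whole length, Chaf1b, Lin28b, Pard6b, Stk3, Isl1, Gabrb1 and 8 long neuronal genes no longer differed. Depth per list is unknown, and changes of 100 kb are a single step of the grid.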
